A study of Mus musculus with 8 samples.

Results

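Binding of NF-YA at the genes of the replication-dependent histones was described in muscle stem cells (MuSCs) of control and Taf4asKO mice. Histone peaks were chosen by the gene symbol that the deposited table assigns to a peak, and this choice found 43 of 7196 merged peaks, assigned to 37 gene IDs. NF-Y is built of 3 subunits and binds the sequence CCAAT, called the NF-Y box here, and NF-YA is the subunit that gives it this specificity. It was mapped by CUT&RUN, in which an antibody brings a nuclease to the bound protein so that the DNA around it is released and sequenced. The labels give 8 libraries from C57BL/6 MuSCs in culture, in the activated or proliferating state, as 2 NF-YA and 2 IgG libraries for each genotype. Taf4asKO mice carried Pax7CreERT together with Taf4a flox/flox, so that tamoxifen, given at 8 to 20 weeks of age, removed the floxed exons in cells that express Pax7. The labels of the control libraries give the genotype "Control" and a title with WT. The study describes its controls as littermates that carried Taf4a flox/flox as well, with or without the Cre, and which of these the libraries came from is not stated in the sources used here. Nothing in the labels says whether the libraries of a genotype came from separate animals, so that p-values measure the spread between these libraries, which may be technical. The 4 NF-YA libraries were compared, and IgG libraries were not analysed here.

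Replication-dependent histone genes encode the core histones H2A, H2B, H3 and H4 and the linker histone H1, and they are transcribed in S phase, when new chromatin has to be packed. Most lie in clusters in many near-identical copies, and their mRNAs end in a stem-loop in place of a poly(A) tail. Many H2A and H2B genes stand head to head and are transcribed in opposite directions from a promoter that they share. NF-Y is known to bind histone gene promoters, and TAF4A is a subunit of TFIID, the general factor that recruits RNA polymerase II.

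Genes are named here by the GENCODE M21 name of their gene ID, since the table gave 17 symbols to the 37 gene IDs and used 6 of these symbols for several IDs. The members lay on chromosome 13 (31 peaks of 27 gene IDs), chromosome 3 (9 peaks of 8 gene IDs), chromosome 6 (2 peaks of 1 gene ID) and chromosome 11 (1 peak). By class they comprised 8 H2A, 13 H2B, 15 H3, 5 H4 and 2 H1 peaks. The label did not hold for both H1 peaks, which were assigned to H1fx (symbol H1f10), a replacement linker histone that is made outside S phase as well. The genes H1-1, H1-2, H1-3 and H1-5 and the H2A gene H2aw were not found by the symbols of the rule, and their peaks are given apart. The peak at the start of the H2A gene Hist2h2ab is assigned to its neighbour Bola1 and is likewise no member. Of the members, 32 were centred within 500 bases of the start of the assigned gene and 11 lay farther away.

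Values are reads per peak after the size factor normalisation of the authors, rounded to whole numbers. The number of reads behind them differed between libraries: 1 read was worth 1.04 in control replicate 1 and 3.26 in control replicate 2, which corresponds to 351696 and 111265 reads in peaks. In control replicate 1 the whole numbers 12, 35, 59, 82 and 106 never occurred, and they are spaced as a step slightly above 1 leaves them. For Taf4asKO replicate 2 the estimate was 505241 reads in peaks, and for Taf4asKO replicate 1 it was not settled and lay at 734552 or 1001450. By these estimates the peaks of each control library held fewer reads than those of either Taf4asKO library, so that the number of reads in peaks and the genotype cannot be told apart. Enrichment and sequencing depth both enter such a number. The total reads listed by the study do not follow the same order. In the uniquely mapped reads that it lists, each control library again lay below either Taf4asKO library. The table holds no transcript levels, so that neither the loss of Taf4a nor the identity of the cells could be checked from it.

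The promoters on which the results turn are shown first, as RefSeq and GRCm38.p6 (the build mm10) give them, with each CCAAT or its reverse complement in capitals. The first stretch lies between the starts of Hist1h2bl and Hist1h2ai (chr13:21716184-21716411, plus strand), and its peak is the histone peak that was called between the genotypes:
Hist1h2bl/Hist1h2ai: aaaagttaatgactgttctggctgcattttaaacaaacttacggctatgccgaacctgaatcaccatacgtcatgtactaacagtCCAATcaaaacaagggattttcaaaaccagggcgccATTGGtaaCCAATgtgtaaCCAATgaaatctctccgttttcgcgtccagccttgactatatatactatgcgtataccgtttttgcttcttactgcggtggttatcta
It is followed by the stretch between Hist1h2ak and Hist1h2bn (chr13:21753913-21754075, plus strand), the peak next in order of the adjusted p, and by the one between Hist1h2ba and Hist1h2aa (chr13:23934157-23934436, plus strand), which holds NF-Y boxes but no peak:
Hist1h2ak/Hist1h2bn: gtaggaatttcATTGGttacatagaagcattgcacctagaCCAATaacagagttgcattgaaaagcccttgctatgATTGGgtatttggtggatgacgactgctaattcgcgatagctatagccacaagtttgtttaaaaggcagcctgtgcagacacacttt
Hist1h2ba/Hist1h2aa: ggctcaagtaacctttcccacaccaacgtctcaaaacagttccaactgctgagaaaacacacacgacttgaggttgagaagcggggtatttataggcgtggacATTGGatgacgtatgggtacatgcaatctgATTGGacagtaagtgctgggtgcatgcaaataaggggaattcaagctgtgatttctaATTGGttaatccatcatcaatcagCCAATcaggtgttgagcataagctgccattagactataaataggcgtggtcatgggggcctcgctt
An H3 promoter with a strong peak is given as the 250 bases before the start of Hist1h3g (chr13:23535168-23535417, plus strand):
Hist1h3g: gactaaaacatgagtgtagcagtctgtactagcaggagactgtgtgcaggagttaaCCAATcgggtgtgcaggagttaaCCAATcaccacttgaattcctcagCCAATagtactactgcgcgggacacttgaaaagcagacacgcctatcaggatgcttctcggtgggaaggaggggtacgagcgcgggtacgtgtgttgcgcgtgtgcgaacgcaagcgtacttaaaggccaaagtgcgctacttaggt
The H4 class is shown by the same stretch of Hist1h4c (chr13:23698459-23698708, minus strand), the H4 gene with a peak at its start, of Hist1h4d (chr13:23581318-23581567, plus strand), with 1 NF-Y box and no peak at the start, and of Hist1h4b (chr13:23756687-23756936, plus strand), with neither:
Hist1h4c: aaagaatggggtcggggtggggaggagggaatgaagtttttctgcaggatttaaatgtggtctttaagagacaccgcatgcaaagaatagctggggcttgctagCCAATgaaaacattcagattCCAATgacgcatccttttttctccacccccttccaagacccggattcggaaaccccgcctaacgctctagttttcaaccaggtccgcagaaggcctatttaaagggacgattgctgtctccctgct
Hist1h4d: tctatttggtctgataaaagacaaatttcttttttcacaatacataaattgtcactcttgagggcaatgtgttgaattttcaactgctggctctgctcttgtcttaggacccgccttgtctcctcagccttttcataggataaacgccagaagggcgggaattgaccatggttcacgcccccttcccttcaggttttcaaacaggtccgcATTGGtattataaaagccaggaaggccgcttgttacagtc
Hist1h4b: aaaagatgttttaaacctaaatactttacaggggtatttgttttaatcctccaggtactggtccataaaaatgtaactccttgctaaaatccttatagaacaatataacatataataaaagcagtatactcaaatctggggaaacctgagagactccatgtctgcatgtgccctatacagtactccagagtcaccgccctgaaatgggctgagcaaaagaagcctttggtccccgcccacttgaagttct
The 4 boxes of Hist1h2bl/Hist1h2ai lie close together in the middle of the stretch, and the 4 boxes of Hist1h2ba/Hist1h2aa lie farther apart.

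To place the binding among all genes of the family, and not only among those with a peak, the 67 protein-coding genes of the histone clusters in GENCODE M21 were examined, H1-type and H2aw genes included. A peak was centred within 500 bases of the start in 46 of them. These were 15 of 18 H2A genes (Hist2h2ab and H2aw, GENCODE name Hist3h2a, by peaks outside the rule), 15 of 18 H2B genes, 12 of 12 H3 genes, 3 of 6 H1 genes and 1 of 13 H4 genes. NF-YA was therefore recorded at the starts of nearly all H2A, H2B and H3 genes, while H4 starts were almost without it. The table lists only regions called in at least 1 library, so that a gene without a peak is one at which no region was called, not one shown to be free of NF-YA.

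**Figure D1:**
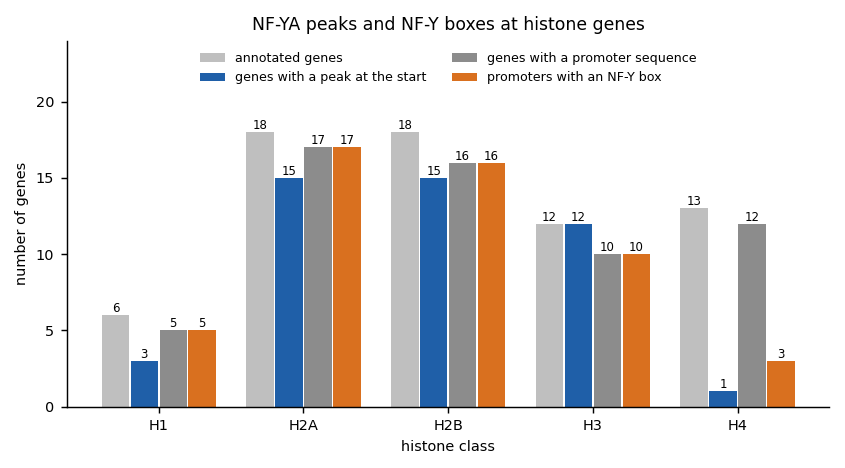
Number of genes (vertical axis) by histone class (horizontal axis), with 4 bars for annotated genes, genes with an NF-YA peak centred within 500 bases of the start, genes with a matched RefSeq promoter and promoters that hold an NF-Y box. Of the H4 genes 1 of 13 had a peak and 3 of 12 promoters a box, against 12 of 12 genes and 10 of 10 promoters for H3.

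The NF-Y box was likewise less frequent at H4 genes than in the other classes. RefSeq promoters, which reach from 250 bases before to 50 bases after the start, were matched for 60 of the 67 genes. CCAAT on either strand was found in 17 of 17 H2A, 16 of 16 H2B, 10 of 10 H3 and 5 of 5 H1 promoters, and in 3 of 12 H4 promoters. Of all 32851 RefSeq promoters, 37.4% (95% Wilson interval 36.9 to 37.9) held it. At least 3 boxes stood in 14 of 16 H2B and 11 of 17 H2A promoters, in 4 of 10 H3 promoters and in 0 of 12 H4 promoters, against 3.37% of all promoters. The promoters of a head-to-head pair overlap, and copies of 1 class resemble each other, so that these counts are not of independent sequences.

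Other elements of histone promoters were distributed differently. The octamer ATTTGCAT on either strand, known as the site of OCT1 (Pou2f1) in H2B promoters, was found in 6 of 16 H2B and 7 of 17 H2A promoters, in 0 of 10 H3 promoters and in 0 of 12 H4 promoters, against 1.74% of all promoters. Of these 13 promoters 6 belong to 3 head-to-head pairs with an octamer in the promoters of both genes, and the other 7 count in 1 class only. TATAAA on the strand of the gene, a form of the TATA box, stood in 8 of 12 H4, 10 of 17 H2A, 4 of 10 H3, 4 of 16 H2B and 3 of 5 H1 promoters, against 8.32% of all promoters. Between 45 and 20 bases before the RefSeq start, around the usual place of a TATA box, it stood in 1 of 12 H4 promoters (Hist1h4d), 6 of 17 H2A, 2 of 10 H3, 2 of 16 H2B and 3 of 5 H1 promoters. In 7 of the 8 H4 promoters with TATAAA it thus lay elsewhere, by the RefSeq start.

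**Figure D2:**
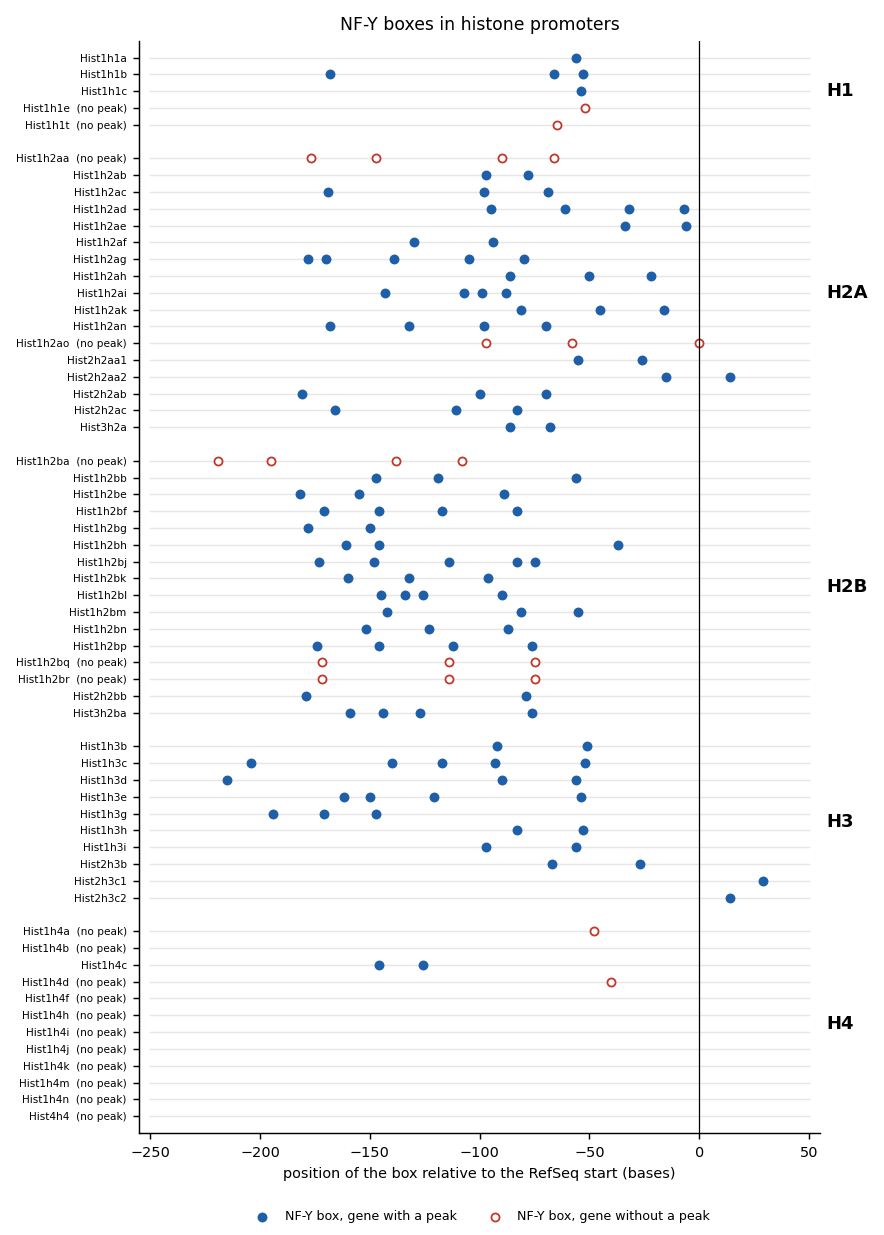
Position of each NF-Y box relative to the RefSeq start in bases (horizontal axis) in the 60 matched promoters, 1 line per gene, grouped by class, with filled points for genes that have a peak within 500 bases of the start and open points for genes without one. Boxes of H2B genes lie mostly between 200 and 50 bases before the start (51 of 53), and 9 of the 12 H4 lines are empty.

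In H2B promoters 51 of 53 boxes began between 200 and 50 bases before the RefSeq start, with a median of -132. The corresponding numbers were 40 of 51 with a median of -86 for H2A and 20 of 25 with a median of -92 for H3. RefSeq and GENCODE starts differed by up to 98 bases, with a median of 11, which moves these positions by the same amounts. Where a peak held more than 1 box, 20 of the 62 distances between neighbouring boxes (32.3%) were 20 to 29 bases, counted from first base to first base, while 540 of 4539 (11.9%) fell in this range over all peaks. At 40 to 59 bases lay 9 of 62 distances (14.5%, against 25.3% over all peaks). No test was made of this, since copies of a class share their promoter sequence.

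Within the peaks themselves, 39 of 43 members held a box in their central 200 bases (90.7%, 95% Wilson interval 78.4 to 96.3), compared with 5646 of 7196 peaks (78.5%). Most members lie at a start, and of all peaks within 500 bases of the assigned start 89.4% held a box, which is within the interval of the members. At least 2 boxes were found in 33 of 43 members (76.7%, 62.3 to 86.8) in 36.4% of all peaks and in 51.6% of peaks at a start. Stronger peaks hold more boxes throughout the table, and of the 971 peaks whose mean reached 100 the share with at least 2 boxes was 71.3%, against 14 of 16 histone peaks of this strength (87.5%, 64 to 96.5). This interval includes the share of the strong peaks, and so it was in 7 of 9 counts of boxes (at least 1, 2 or 3, in the central 100 or 200 bases or the whole peak). The interval lay above the share of the strong peaks in the other 2. At least 2 boxes in the central 100 bases were found in 68.8% of the 16 histone peaks (44.4 to 85.8) and in 35% of the strong peaks, and at least 3 boxes in the whole peak in 87.5% (64 to 96.5) and in 60.8%. These intervals take peaks as independent, which copies of a class are not. Of the 32 members at a start 31 held a box, and of the 11 members away from a start 8 did.

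Head-to-head pairs carried much of the signal. GENCODE places 12 pairs of H2A and H2B genes with at most 600 bases between their starts, and 9 of these pairs had a peak between the starts. Each of the 9 held 1 peak, so that its NF-YA signal belongs to an H2A and an H2B gene alike, whichever of them the table names. Their mean values ranged from 79.5 at Hist2h2ac/Hist2h2be to 176.5 at Hist1h2bf/Hist1h2ad. The 3 pairs without a peak were of different kinds. The pairs Hist1h2bq/Hist1h2ao and Hist1h2ap/Hist1h2br are copies, the promoters of Hist1h2bq and Hist1h2br being identical over 300 bases, and 0% of the 36-base stretches around their starts occur once in the genome. Reads that map to several places were removed by the authors, and the part of this removal in the missing peaks was not tested. The uniqueness was computed for single stretches of the read length, while a read pair spans more sequence.

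The remaining pair without a peak, Hist1h2ba/Hist1h2aa, encodes the testis-specific H2B and H2A. All of its 36-base stretches were unique, and its shared stretch contains 4 NF-Y boxes in GRCm38. Here the sequence held the box, and no region was called. Of the 12 H4 genes without a start peak, 2 (Hist1h4m and Hist1h4n) had fewer than 10% unique stretches, and the other 10 had at least 66.45%. The part of mapping in the missing H4 peaks was not tested.

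By class, the H2B peaks were the strongest. Their median value over the 4 libraries was 146.2 (range 5 to 219, 13 peaks), compared with 86 (10.75 to 137.2, 8 peaks) for H2A, 53 (13.25 to 179.2, 15 peaks) for H3, 21.5 (4.5 to 75.75, 5 peaks) for H4 and 15 (2.75 and 27.25) for both H1 peaks. The highest H4 value, 75.75, belongs to the peak assigned to Hist1h4d, which did not lie at an H4 gene, as described below. The median over all peaks of the table was 17.25. Peaks differed in width from 75 to 776 bases, and per 100 bases of peak the medians were 33.7 for H2B, 25.1 for H2A, 17.4 for H3, 13.6 for H4 and 8.56 for H1, against 9.95 for all peaks. The order of the classes was the same on both scales, and the ranges of neighbouring classes overlapped. The place of H2A above H3 rested on peaks shared with H2B genes. At starts that no head-to-head H2A and H2B pair shares, the medians were 155.9 for H2B (6 peaks), 63.75 for H3 (12 peaks) and 36.38 for H2A (4 peaks). Of these, the H2B peak of Hist1h2bh also spans the start of the H3 gene Hist1h3f. The start peaks of H2aw and Hist2h2ab, with means of 92 and 47.75, are no members and are not counted here. Of the 43 members 16 (37.2%) reached a mean of 100, as did 13.5% of all peaks, and the strongest member ranked 286th among 7196.

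**Figure D3:**
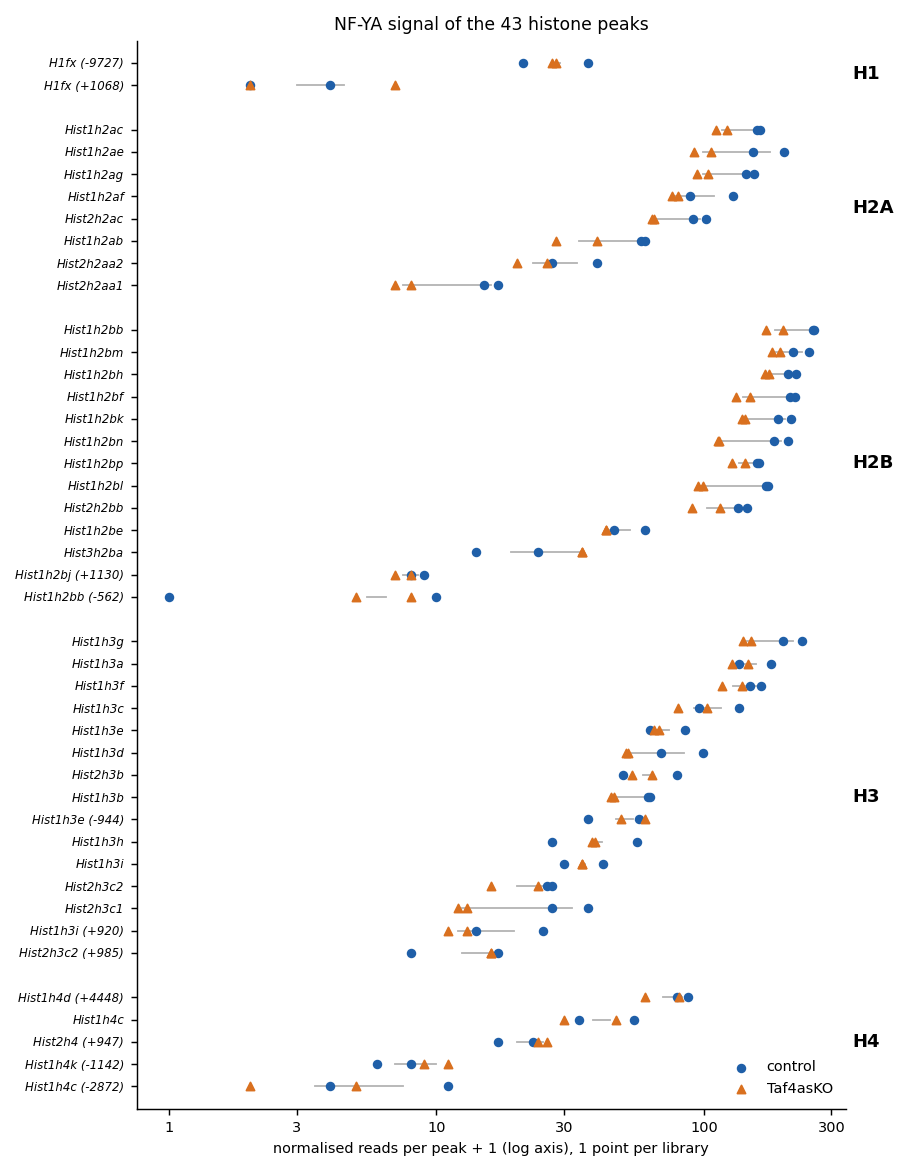
Normalised reads per peak plus 1 on a log axis (horizontal) for each of the 43 histone peaks (vertical, grouped by class), with circles for the 2 control libraries, triangles for the 2 Taf4asKO libraries and a grey line between the group means; numbers in parentheses are distances in bases from the start for peaks away from it. Triangles lie left of circles for all 8 H2A peaks, while H4 and H1 peaks show no common order.

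The strongest H2B peaks were those of Hist1h2bb, Hist1h2bm and Hist1h2bh, each of which encodes a core histone H2B of the chromosome 13 cluster. Hist1h2bb gave 256 and 254 in the control and 169 and 197 in the Taf4asKO libraries. Hist1h2bm gave 247 and 215 against 179 and 191, and Hist1h2bh, whose broad peak lies between the starts of Hist1h2bh and the H3 gene Hist1h3f, gave 220 and 205 against 168 and 174. In these 3 peaks the Taf4asKO values were lower without overlap, as they were in 59% of the 971 peaks whose mean reached 100. Among H3 genes Hist1h3g was strongest, with 197 and 232 against 139 and 149, also without overlap. Hist1h3a gave 177 and 134 against 126 and 145, so that its genotypes overlapped, and Hist1h3f gave 148 and 163 against 116 and 138. The strongest H2A peaks, those of Hist1h2ac, Hist1h2ae and Hist1h2ag, were all shared with an H2B gene. Hist1h2ac gave 161 and 157 against 110 and 121, Hist1h2ae 152 and 199 against 105 and 91, and Hist1h2ag 143 and 153 against 93 and 103. Each Taf4asKO value of these peaks lay below each control value.

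To ask whether NF-YA binding at histone genes depended on TAF4A, the genotypes were compared with limma over all 4746 peaks whose mean reached 10. Of the histone peaks 38 were among these, and the other 5 had means of 2.75 to 7.5 and were not tested. A single histone peak was called, the one between the starts of Hist1h2bl (ENSMUSG00000094338) and Hist1h2ai (chr13:21716073-21716468, GRCm38). Its values were 172 and 170 in the control libraries (mean 171 ± 1.41, SD, n = 2), whereas the Taf4asKO libraries gave 94 and 98 (mean 96 ± 2.83, SD, n = 2). Binding there fell by 0.83 on the log2(value + 1) scale (SE 0.157, adjusted p = 0.0473, limma with Benjamini-Hochberg adjustment). The peak was picked by this call, which favours peaks whose 2 values agree. The small SDs therefore do not show how well the values repeat. About 165 and 52 reads stood behind the control values. The call was 1 of 38 members, and lower, in a table in which 0.948% of the tested peaks were called in either direction and 0.611% as lower. With any 1 library left out limma called 0 of 4746 peaks, 227 to 1089 of which had an unadjusted p under 0.05, so that these fits say little about the call of a single peak. The log2 fold change of this peak then lay between -0.86 and -0.80 and its adjusted p between 0.1872 and 0.7386. With the replicate number as a block the log2 fold change was -0.83 again (SE 0.170) and the adjusted p was 0.0709 in limma. The call was also lost with the libraries centred on the strong peaks (log2 fold change -0.60, adjusted p = 0.05253) and without a minimum on the mean (log2 fold change -0.83, adjusted p = 0.2845, 0 of 7196 peaks called and 1015 with an unadjusted p under 0.05). An exact two-sided permutation test of the 4 values gave p = 0.333, which is the smallest p that 2 against 2 libraries allow.

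The peaks next in order did not pass. Hist1h2bn, shared with Hist1h2ak, gave 182 and 205 in control and 113 and 112 in Taf4asKO libraries (log2 fold change -0.77, SE 0.155, adjusted p = 0.0556 with limma). Hist1h2ae, shared with Hist1h2bg, had a log2 fold change of -0.82 (SE 0.184, adjusted p = 0.0801). With equal medians both peaks were called, and with a pseudocount of 5 Hist1h2bn was. Both lie at shared H2A and H2B promoters, as the called peak does, and a call was made for 5 members in place of 1, and for 131 of 4746 peaks in place of 45, when the threshold was set to an adjusted p under 0.1.

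Although single peaks rarely passed, low values in the Taf4asKO libraries were common among the histone peaks. The log2 fold change was negative in 34 of the 38 tested members, with a median of -0.44, while it was negative in 53.8% of all tested peaks, with a median of -0.04. Both Taf4asKO values lay below both control values in 25 of 38 members, where 28.6% of all tested peaks showed this, and above both in 2 of 38, where 19.3% did. Without adjustment, p was under 0.05 in 16 of 38 members, 15 of them lower, and in 849 of 4746 peaks, 519 of them lower. Summed over the 43 members, the libraries held 4031 and 3895 for control (mean 3963 ± 96.2, SD, n = 2), while Taf4asKO libraries held 2809 and 3058 (mean 2933.5 ± 176, SD, n = 2), a ratio of 0.74, compared with 0.905 for the sum over all peaks. These are descriptions of a group that was put together with genotype differences of these data in view, and they carry no test.

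Strong peaks were lower in the Taf4asKO libraries throughout the table, which sets the scale for this difference. Among the 971 peaks with a mean of at least 100, 84.7% had a negative log2 fold change, the median was -0.22, and in 59% of them both Taf4asKO values were below both control values. For the 16 histone peaks of this strength the median was -0.47, all 16 were negative, and 14 of 16 had no overlap. Between a mean of 10 and 100 the median was -0.27 for 22 histone peaks and 0.05 for 3775 peaks. In both ranges of strength the median of the histone peaks was thus below that of all peaks. The ranges do not match strength exactly. From 10 to 100 the median value was 39.75 for the histone peaks and 25.75 for all peaks, and above it 145.9 and 156.2. The parts of strength and of the number of reads in the distance between the median log2 fold changes were not tested.

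**Figure D4:**
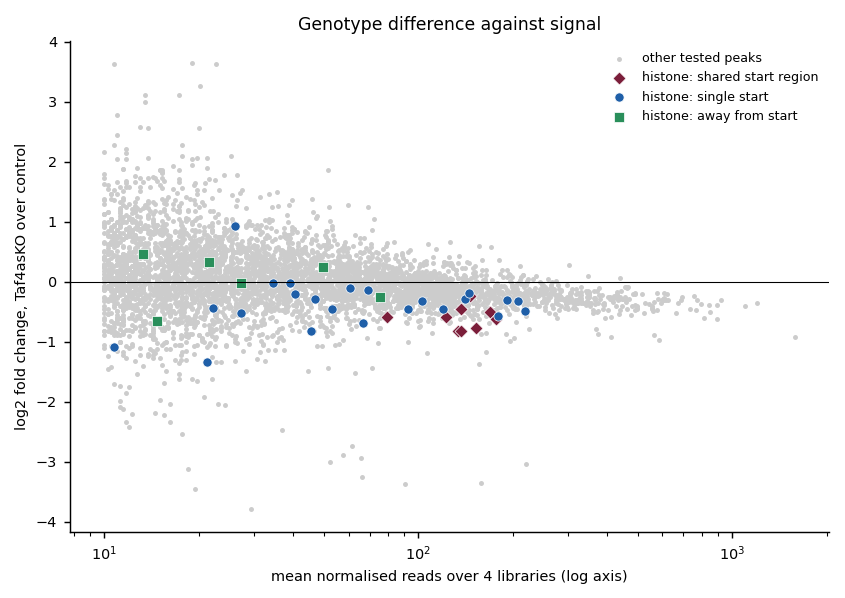
Log2 fold change of Taf4asKO over control (vertical axis) against the mean normalised reads over 4 libraries on a log axis (horizontal), for all tested peaks in grey and the 38 tested histone peaks in colour, by position. Diamonds, the 9 peaks between head-to-head H2A and H2B starts, all lie below 0 at means of 79.5 to 176.5, and squares, the peaks away from a start, scatter around 0.

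The scaling of the libraries moved all peaks together. With equal totals the median of all tested peaks was 0.10 and that of the members -0.30, and with the libraries centred on the strong peaks the medians were 0.19 and -0.21. The distance of the members from all peaks was -0.40 in each of these scalings and in the deposited one, since a scaling shifts all peaks by the same amount. The number of members with a negative log2 fold change fell from 34 to 29 and to 27 of 38 under these scalings, and the called members numbered 1 and 0, among 61 and 78 called peaks in all. With equal medians 13 members were called, among 315 peaks in all, but the medians of the rounded values are small whole numbers, so that this scaling is coarse.

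The genotype values were also set out by the position of the peak. In the 9 peaks between head-to-head starts the summed values were 1476 and 1553 in control and 991 and 1003 in Taf4asKO libraries (ratio 0.658), the log2 fold change was negative in 9 of 9, with a median of -0.59 and a range of -0.83 to -0.24, and both Taf4asKO values were below both control values in 9 of 9. The means of these peaks were 79.5 to 176.5, and this order of the values was found in 28.6% of all tested peaks, and in 59% of the 971 strong ones whose mean reached 100. In the 23 peaks at other starts the sums were 2298 and 2136 against 1607 and 1813 (ratio 0.771), the median was -0.33, and 15 of 23 were lower without overlap. In the 11 peaks away from the start of the assigned gene the sums were 257 and 206 against 211 and 242 (ratio 0.978), and of the 6 that were tested 3 were negative and 3 positive. The strongest of the 11, assigned to Hist1h4d with 86 and 78 against 59 and 80, lies near an alternative RefSeq start of Hist1h2be. The ratio is thus not one of sites far from every start. Peaks away from a start were also the weakest, with a median value of 13.25, and no test of a difference between the positions was made.

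Among the classes of the members, H2A showed the lowest values relative to control. Its 8 peaks summed to 771 and 812 in control and 499 and 528 in Taf4asKO libraries (ratio 0.649), and in 8 of 8 members the Taf4asKO values were lower without overlap, as in 28.6% of all tested peaks and 59% of those with a mean of at least 100. Their median log2 fold change was -0.58 (range -1.09 to -0.46). At the start of Hist2h2ab, which is no member, the genotypes overlapped (49 and 42 against 46 and 54, log2 fold change 0.13, SE 0.226). At the 4 H2A members not shared with an H2B gene the sums were 225 and 202 against 127 and 150, which is the same ratio of 0.649. Among these was Hist1h2ab, which gave 57 and 59 against 27 and 39. At starts that no head-to-head H2A and H2B pair shares, the ratios were 0.79 for H2B and 0.776 for H3. The start peaks of Hist2h2ab and of H2aw (109 and 98 against 81 and 80) are also unshared H2A peaks and are not in the H2A sums. The lower H2A ratio therefore holds for the members only. Of the 8 H2A members 0 passed the threshold of the table in limma, and 6 had an unadjusted p under 0.05, as 849 of all 4746 tested peaks had.

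The 13 H2B peaks summed to 1871 and 1840 against 1310 and 1391 (ratio 0.728), and 10 of the 11 tested had lower values without overlap, where 28.6% of all tested peaks and 59% of the strong ones did. Their median log2 fold change was -0.45. The exception was Hist3h2ba on chromosome 11, an H2B gene outside the large clusters, for which control libraries gave 23 and 13 and Taf4asKO libraries 34 and 34. Its log2 fold change of 0.93 (SE 0.331) was the highest of the members but did not pass (adjusted p = 0.186, limma), and its control values stood for few reads, about 22 and 4. The log2 fold change was 1.322 without control replicate 1 and 0.544 without control replicate 2. The promoter of Hist3h2ba holds 4 NF-Y boxes.

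For H3 the sums were 1182 and 1076 against 843 and 951 (ratio 0.794). Of 15 tested peaks 13 were negative, the median was -0.29, and 7 had lower Taf4asKO values without overlap, a share between the 28.6% of all tested peaks and the 59% of strong peaks. The spread within this class was wide: Hist1h3h gave 55 and 26 in control and 38 and 37 in Taf4asKO libraries, whereas Hist1h3d gave 98 and 68 against 51 and 50. Among the H4 peaks the sums were 170 and 144 against 125 and 160 (ratio 0.908), and of the 3 that were tested 2 were negative, 1 was positive and 0 were called. A large part of these sums, 86 and 78 against 59 and 80, is the peak assigned to Hist1h4d. It did not lie at an H4 gene, as described below, so that the ratio is not one of H4 sites alone. Hist1h4c, with the single start peak of this class, gave 54 and 33 against 29 and 46, and the genotypes overlapped. The H1fx peak that was tested gave 36 and 20 against 26 and 27 (log2 fold change -0.02, SE 0.327), with full overlap.

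The lowest log2 fold changes of all members belonged to weak peaks of duplicated genes on chromosome 3. Hist2h3c1, an H3 gene, gave 26 and 36 in control and 11 and 12 in Taf4asKO libraries (log2 fold change -1.34, SE 0.334, adjusted p = 0.0979, limma). Hist2h2aa1, an H2A gene, gave 14 and 16 against 6 and 7 (log2 fold change -1.09, SE 0.456, adjusted p = 0.248). The genotypes did not overlap in either, and neither passed the threshold. Both genes have a near-identical copy. At the copy of the former, Hist2h3c2, the start peak gave 25 and 26 against 15 and 23 (log2 fold change -0.43), and at the copy of the latter, Hist2h2aa2, the values were 26 and 39 against 19 and 25 (log2 fold change -0.53). Only 36.7%, 30.8% and 29% of the 36-base stretches in the peaks of Hist2h3c1, Hist2h3c2 and Hist2h2aa2 were unique, so that their values rest on a part of the reads and on which copy these fit. The stretch of 500 bases around the starts of Hist2h3c1 and Hist2h3c2 was unique to 7.74%. Without the 3 peaks under 50% uniqueness the median of the members was -0.33 in place of -0.44.

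Several genes had a peak besides the one at the start, and no test of a difference between the peaks of a gene was made. The H3 gene Hist1h3e had a peak 944 bases before its start, where 56 and 36 (control) stood against 48 and 59 (Taf4asKO) (log2 fold change 0.24, SE 0.264), beside 84 and 62 against 64 and 67 at the start (log2 fold change -0.14, SE 0.214). Hist1h3i had a peak 920 bases past its start with 24 and 13 against 10 and 12 (log2 fold change -0.65, SE 0.421), beside 41 and 29 against 34 and 34 at the start (log2 fold change -0.02, SE 0.267). Hist2h3c2 had a peak 985 bases past its start with 7 and 16 against 15 and 15 (log2 fold change 0.46, SE 0.464), beside 25 and 26 against 15 and 23 at the start (log2 fold change -0.43, SE 0.324). These peaks lie beyond the short coding region or upstream of the promoter, and 0 of them was called. A further peak 562 bases before Hist1h2bb and one 2872 bases before Hist1h4c had values of at most 10 and were not tested. H1fx had 2 peaks and none at its start, and the one 1068 bases past the start, with values of at most 6, was not tested either.

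Of the H4 peaks away from a start, the strongest did not lie at an H4 gene. The peak assigned to Hist1h4d (chr13:23585888-23586205) was centred 4448 bases past its start, and RefSeq gives an alternative start of the H2B gene Hist1h2be (RefSeq symbol H2bc6) 76 bases from its centre. It gave 86 and 78 in control and 59 and 80 in Taf4asKO libraries (log2 fold change -0.25, SE 0.211). Hist2h4 had a peak 947 bases past its start with 22 and 16 against 23 and 25 (log2 fold change 0.34), 1 of the 2 tested members in which both Taf4asKO values were above both control values, the other being Hist3h2ba. The H4 class therefore held a single peak at an H4 start. The other H1fx peak that could be compared lay 9728 bases before the start by the deposited distance, where no annotated start is near.

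Genes that act on histone genes or histones were followed by a list of 41 genes. Of the 10 genes for transcription of histone genes 8 had a peak, with 9 peaks in all, 9 of them tested and 0 called, 6 lower and 3 higher, with a median log2 fold change of -0.23. Casp8ap2, which encodes FLASH, a factor of the histone locus body, gave 140 and 160 in control and 103 and 142 in Taf4asKO libraries, and Hinfp, an activator of H4 genes, gave 109 and 108 against 87 and 98. No peak was assigned to Npat, the coactivator of histone genes in S phase. The genes of NF-Y itself carried peaks, with 183 and 251 against 154 and 195 at Nfya, 116 and 117 against 102 and 107 at Nfyb, and 62 and 68 against 62 and 71 at a peak 6405 bases from the start of Nfyc. With limma 0 of the 9 peaks passed, and 1 had an unadjusted p under 0.05, as 849 of all 4746 tested peaks had.

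Only 2 of 10 genes for 3' end processing had a peak. Slbp, which encodes the protein that binds the stem-loop of histone mRNA, gave 58 and 59 in both genotypes. Of the 12 histone chaperone genes 6 had a peak, with 3 lower, 3 higher and 0 called in limma, while 3 had an unadjusted p under 0.05. Of all 4746 tested peaks, 0.948% were called and 849 had an unadjusted p under 0.05. Replacement histones are made outside S phase as well, and 6 of 9 listed genes had a peak outside the rule, 8 peaks in all, of which 7 were tested, 5 were lower, 2 higher and 0 called (median -0.13, 0 with an unadjusted p under 0.05). The H2A.X gene H2afx gave 220 and 251 against 211 and 219 (log2 fold change -0.13, SE 0.14), and the H2A.Z genes gave 149 and 134 against 118 and 141 at H2afz and 353 and 372 against 287 and 311 at H2afv (log2 fold change -0.28, SE 0.124). The peak of H2afv was stronger than any member, and the median difference of the replacement histones lay nearer to that of all peaks than the median of the members did. Whether replacement and cluster histones differ in this was not tested.

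Cluster genes outside the rule gave a mixed picture. The linker histone genes H1-1, H1-2, H1-3 and H1-5 had 8 peaks, of which 7 were tested, with 5 lower, 2 higher and 0 called in limma (median log2 fold change -0.45, 2 with an unadjusted p under 0.05). Such a p was found in 849 of all 4746 tested peaks. At the start of H1-5 the values were 37 and 33 in control and 18 and 16 in Taf4asKO libraries (log2 fold change -1.0, SE 0.285, adjusted p = 0.13), and at the start of H1-1 they were 25 and 13 against 22 and 33 (log2 fold change 0.55, SE 0.378). H2aw, an H2A gene on chromosome 11, had 6 peaks, and the one nearest its start gave 109 and 98 against 81 and 80 (log2 fold change -0.36, SE 0.177). Of the 5 linker histone promoters 4 held a single box, and the start peaks of H1-1, H1-2 and H1-5 had means of 23.25, 12.75 and 26, where the median at H2B starts was 153.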

How the data were processed

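NF-YA CUT&RUN was compared in 4 libraries, 2 per genotype, grouped by the labels. The authors trimmed read pairs of 36 bases (Trimmomatic 0.39), aligned them to mm10 (STAR 2.7.11a), removed duplicates (Picard 3.1.1) and spliced, multi-mapping, ribosomal and mitochondrial reads, called peaks per library against IgG with MACS, merged them, and normalised the reads per peak with DESeq2 (versions per the submitters' processing notes). The deposited score per peak is this normalised number, rounded by the authors. Merging and the removal of multi-mapping reads limit what near-identical histone copies can show. The assigned gene is the one with the nearest start within 10000 bases.

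Peaks whose mean reached 10 were fitted with limma 3.58.1 (R 4.3.3) on log2(value + 1), with a trended variance and Benjamini-Hochberg adjustment over all 4746 peaks, where an adjusted p under 0.05 is a call. The fit was also run on simulated data, where the changes put in were larger than any seen at the histone peaks. That run does not show how well smaller changes are called. Whole reads could not be recovered in the Taf4asKO libraries, so that no count model was run. The value of 1 read was estimated from the steps between values. On simulated libraries this search recovered 5 of 5 steps from 1 to 1.2, 5 of 5 from 3 to 3.5, 5 of 5 from 0.6 to 0.8 and 3 of 5 from 0.4 to 0.5, but 0 of 2 round steps, whose multiples fall between whole numbers, and 1 of 2 when these were moved slightly. The read numbers are therefore estimates. Intervals are 95% Wilson intervals and cover counting error only. Motifs were CCAAT and ATTTGCAT on either strand and TATAAA on the gene strand. The window of 45 to 20 bases before the start for TATAAA was set after the positions were seen. Uniqueness is the share of 36-base stretches that occur once in GRCm38.p6. Python 3.11.15, numpy 2.4.6, pandas 2.3.3, statsmodels 0.14.6 and matplotlib 3.10.9 were used.

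Members, gene lists and tests were chosen with earlier results of these data known. The text names called members, the 3 strongest per class, the 3 highest and 3 lowest log2 fold changes, genes with several peaks, members outside the clusters of chromosomes 13 and 3, and from the gene list the NF-Y subunits and the main regulators. Hist1h2ab, Hist1h2ae, Hist1h2bn, Hist1h2aa, Hist1h2ba, Hist2h2aa2, Hist1h3d, Hist1h3h and the linker histone peaks were named after their values were seen. Alternatives were other scalings, no minimum, a pseudocount of 5, a replicate block, a looser threshold, other windows and leaving out each library. Restriction to peaks with at least 50% unique stretches was added after seeing the data.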

Additional observations from a re-analysis of the deposited data

How the results depend on the processing

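Each genotype had 2 libraries. The histone median kept its negative sign under every alternative run. It was -0.568 with equal medians, -0.304 with equal totals, -0.214 centred on strong peaks, -0.327 with no minimum, -0.327 with at least 50% unique stretches, and between -0.517 and -0.287 when 1 library was left out (the latter without Taf4asKO replicate 1). The called histone peaks and all calls numbered 13 and 315 with equal medians, 0 and 78 centred on strong peaks, 0 and 0 with no minimum, 0 and 0 without any 1 library, and 5 and 131 at an adjusted p under 0.1. With a pseudocount of 5 there were 2 histone calls (Hist1h2bl and Hist1h2bn) and 58 in all. With the replicate block there were 0 histone calls and 31 in all. The replicate numbers were not shown to pair the libraries, since the deviations of same-numbered libraries correlated at -0.088 over the 4746 tested peaks. The cause of these shifts was not tested. The share with a box was 74.4% in the central 100 bases, the class medians were 112.5 for H2B in Taf4asKO libraries alone and 61.5 for H3 in control libraries alone, and the H4 median was 31 within 1000 bases of the start.

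Of 230 recomputed log2 fold changes of named peaks 17 changed sign, all at peaks that were not called, 6 became calls (with equal medians) and 7 lost a call, all 7 of them at Hist1h2bl, where the log2 fold change was -0.596 centred on strong peaks and -0.797 to -0.856 in the other 6. These counts cover only the peaks picked by the naming rule. Outside them, Hist1h2bn was called with equal medians and with a pseudocount of 5, and Hist1h2ab and Hist1h3d with equal medians. With equal totals the log2 fold change was 0.120 at H1fx and at the Hist1h3i start and 0.004 at the Hist1h3e start. Centred on strong peaks it was 0.211 at H1fx, 0.210 at the Hist1h3i start, 0.092 at the Hist1h3e start, 0.027 at Hist1h4c and 0.044 at Hist1h3a. When 1 library was left out the values lay between -0.428 and 0.389 at H1fx, -0.263 and 0.222 at the Hist1h3i start, -0.354 and 0.078 at the Hist1h3e start, -0.072 and 0.551 at the Hist1h3e peak before the start, -0.551 and 0.143 at Hist1h4c, -0.386 and 0.012 at Hist1h3a, and -0.087 and 1.000 at the Hist2h3c2 peak past the start.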
